A study of Homo sapiens with 6 samples.

Results

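The serpins are a family of proteins that mostly inhibit serine or cysteine proteases, and 25 protein-coding members are described here among the 32299 genes of the deposited table. Members were the genes whose symbol is SERPIN followed by a clade letter from A to I and a number and whose transcript types include protein-coding. Messenger RNA was sequenced from U87, an established human glioblastoma cell line. The labels describe 3 of the 6 libraries as cells that overexpressed tau (tau-labelled) and 3 as cells transfected with a control vector (control-labelled). What vector and promoter carried tau, and how long after transfection the cells were taken, is not given in the sources used here. Nor do the labels tell whether the replicates of a group were separate cultures, and p-values then measure a spread between libraries that may be technical.

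A serpin offers a protease a stretch of its own chain, the reactive centre loop, as bait. When the protease cuts the loop, the serpin snaps into a different fold and traps the enzyme. Some members have lost this activity and carry hormones or help other proteins fold. Several members inhibit the plasminogen activators, proteases that let cells move through the matrix around them. Clade A and several smaller clades hold mainly secreted proteins of blood plasma, while clade B holds mainly proteins of the cytoplasm.

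The targeted gene ran against the labels. MAPT, which encodes tau, had 145, 150 and 176 counts in the tau-labelled libraries, against 279, 391 and 345 counts in the control-labelled libraries (log2 fold change -1.20, adjusted p = 0.00151 by the quasi-likelihood test of edgeR, Benjamini-Hochberg). MAPT was low under both labels, with means of 0.156 FPKM in tau-labelled and 0.333 FPKM in control-labelled libraries. Whether reads of the transfected tau were counted for this gene is not given in the sources used here, and the labels were not tested. Each direction below is therefore that of the libraries labelled tau relative to the libraries labelled control. Total counts per library ran from 58229083 to 65512119. Mesenchymal markers of the line were high under both labels, with a mean of 1784 FPKM of VIM in tau-labelled and 1346 FPKM in control-labelled libraries. Of the 6 listed, VIM rose, SPARC and LGALS1 fell (log2 fold changes -1.70 and -0.83) and 3 did not pass. Of all genes tested, 21.3% rose and 21.4% fell. Hepatocyte genes, a check because the liver makes many serpins, had at most 4 counts over a group for each of the 3 of 5 markers in the table. In bulk RNA, fewer cells that express a gene and less mRNA per cell cannot be told apart.

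Of the 25 serpins, 14 had enough counts to be tested and 8 of these passed (adjusted p below 0.05), where 42.7% of all 17927 genes tested passed. SERPINB2, SERPIND1 and SERPINB8 were the 3 that rose (21.3% of all genes tested rose). SERPINA1, SERPINA6, SERPINH1, SERPINB7 and SERPINB6 were the 5 that fell (21.4% of all genes tested fell). A change of at least 2-fold was seen for 6 of them, SERPINB2, SERPIND1, SERPINB8, SERPINA1, SERPINA6 and SERPINH1, where 17.5% of all genes tested passed with such a change. The FPKM values (counts scaled to gene length and library size) of the groups did not overlap for 8 of the 14, where 56.1% of all genes tested did not overlap. The median log2 fold change was -0.27 over the 14 serpins and 0.00439 over all genes tested, and members passed in both directions. These counts describe the 25 members and were not tested as a list, and a gene near the filter could enter the test through the group where it was higher.

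**Figure D1:**
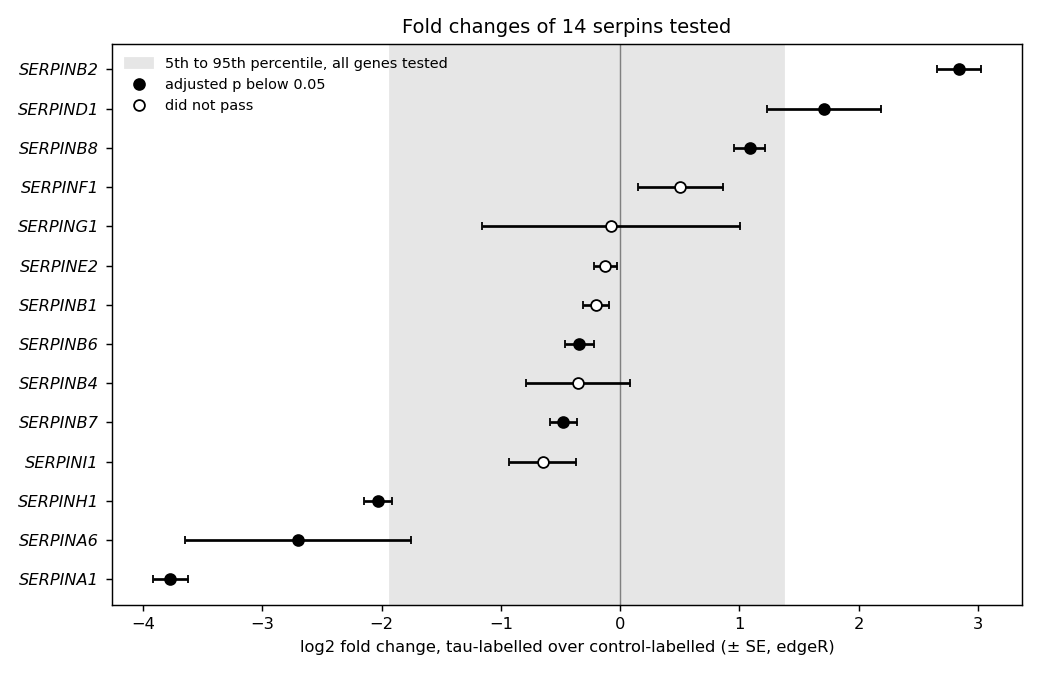
Log2 fold change of 14 serpins tested, tau-labelled over control-labelled, by edgeR with its standard error as a bar. Filled points passed at an adjusted p below 0.05 and open points did not; the grey band holds the log2 fold changes of all genes tested from the 5th to the 95th percentile (-1.93 to 1.38). SERPINA1, SERPINA6 and SERPINH1 lie below the band, and SERPINB2 and SERPIND1 lie above it.

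Among inhibitors of plasminogen activation, SERPINB2 passed and SERPINE2 and SERPINI1 did not. SERPINB2, plasminogen activator inhibitor 2 (ENSG00000197632, chromosome 18, 63871692 to 63903888), inhibits urokinase and is largely kept inside the cell. It stood at 10.7, 11.7 and 9.05 FPKM in the tau-labelled libraries, against 1.05, 1.31 and 1.69 FPKM in the control-labelled libraries. The groups were far apart, and SERPINB2 had the largest rise among the serpins described (log2 fold change 2.84, SE 0.18, 7.18-fold, edgeR adjusted p = 7.34e-06). Its rise lay at percentile 99.4 of all log2 fold changes. The mean was 10.5 ± 1.33 FPKM in tau-labelled and 1.35 ± 0.321 FPKM in control-labelled libraries (SD, n = 3 each), and the call held in all 16 other settings, with log2 fold changes from 2.58 to 3.00.

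SERPINE2, or protease nexin 1, which inhibits thrombin and urokinase (ENSG00000135919, chromosome 2, 223975045 to 224039290), stood at 11.6, 11.4 and 10.2 FPKM in tau-labelled libraries, against 10.7, 11.2 and 11.4 FPKM in control-labelled libraries. The groups overlapped (log2 fold change -0.12, SE 0.10, edgeR adjusted p = 0.337). With offsets for GC content and length, a setting added after the data were seen, SERPINE2 was called lower (log2 fold change -0.55, edgeR adjusted p = 0.00153). SERPINI1, or neuroserpin, which neurons secrete to inhibit tissue plasminogen activator (chromosome 3, 167735243 to 167825569), stood at 0.630, 0.903 and 0.560 FPKM in tau-labelled libraries, against 0.807, 0.973 and 1.26 FPKM in control-labelled libraries. These values overlapped too (log2 fold change -0.65, SE 0.28, edgeR adjusted p = 0.0867), and with the same offsets SERPINI1 was called lower (-0.80, adjusted p = 0.0239). Neuron markers (4 of 5 listed were in the table) summed to 38.4 to 48.7 FPKM in tau-labelled and 24.7 to 32.8 FPKM in control-labelled libraries, nearly all TUBB3. SERPINF2, the plasmin inhibitor α2-antiplasmin, had 10, 4 and 0 counts under the tau label and 9, 0 and 0 in control-labelled libraries, too few to test.

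**Figure D2:**
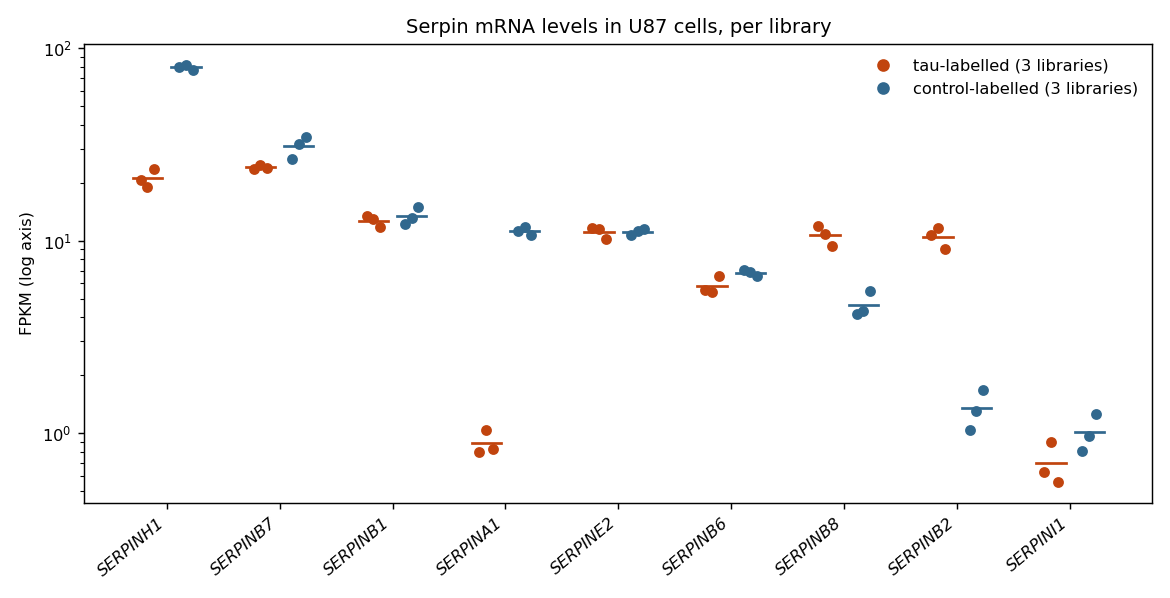
FPKM (log axis) of 9 serpins tested whose mean reached 1 FPKM under either label, with 1 point per library and a line at each group's mean, tau-labelled left and control-labelled right within each gene. SERPINH1 lies highest in the control-labelled libraries, between 76.6 and 81.8 FPKM, and the points of SERPINA1, SERPINH1, SERPINB8 and SERPINB2 separate most clearly by label.

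The summed FPKM of the 25 serpins was 99.8, 99.7 and 97.3 in tau-labelled libraries, against 155, 165 and 164 in control-labelled libraries. The tau-labelled sums were lower in each library. SERPINH1 made up 21.3% ± 2.67 of this sum in tau-labelled and 49.3% ± 2.41 in control-labelled libraries (SD, n = 3 each). The share of SERPINB2 was 10.6% ± 1.21 in tau-labelled and 0.832% ± 0.178 in control-labelled libraries, and that of SERPINB8 was 10.8% ± 1.12 in tau-labelled and 2.88% ± 0.386 in control-labelled libraries (SD, n = 3 each). SERPINB7, at 24.3% ± 0.571 in tau-labelled and 19.1% ± 1.97 in control-labelled libraries, had the larger share under the tau label although its own level was lower there. Shares rise where the sum is smaller. SERPINB1 and SERPINE2, which did not pass, held 12.8% and 11.2% in tau-labelled and 8.35% and 6.90% in control-labelled libraries.

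**Figure D3:**
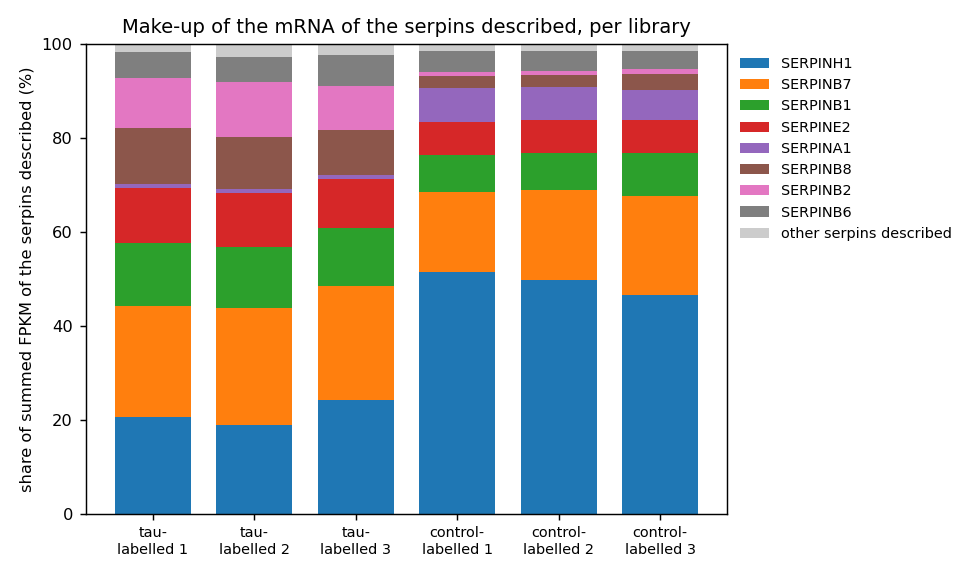
Share of the summed FPKM of the 25 serpins (%) held by each serpin named in the key in each library, tau-labelled libraries at left and control-labelled at right. The remaining serpins are pooled in a grey segment. The SERPINH1 segment takes 18.99% to 24.2% in the tau-labelled and 46.7% to 51.4% in the control-labelled libraries, and that of SERPINB2 9.30% to 11.7% and 0.677% to 1.03% in the same order.

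The proteases and receptors that these inhibitors meet moved in different directions. Of 15 genes listed for the plasminogen system 10 were tested, of which 5 fell, 1 rose and 4 did not pass, with a median log2 fold change of -0.40 (all genes tested: 21.4% fell, 21.3% rose, median 0.00439). The list and the others below were fixed with earlier results of these data known. PLAUR, the urokinase receptor, rose (41.2 ± 2.82 FPKM in tau-labelled and 26.0 ± 3.61 in control-labelled libraries, SD, n = 3 each, log2 fold change 0.55, edgeR adjusted p = 0.00985), but not without control-labelled library 2 (adjusted p = 0.0640). ENO1, a glycolytic enzyme that also binds plasminogen at the cell surface, fell by 1.05 on the log2 scale. ANXA2, annexin A2, fell by 0.69, and S100A10, its partner in a plasminogen receptor, fell by 1.05.

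The plasminogen activators themselves, described after their values were seen, were lower. PLAU, urokinase, stood at 97.6, 103 and 112 FPKM in tau-labelled libraries, against 146, 122 and 119 FPKM in control-labelled libraries (log2 fold change -0.43, edgeR adjusted p = 0.0206). PLAU did not pass without tau-labelled library 1 (adjusted p = 0.0952), tau-labelled library 2 (0.0799) or control-labelled library 1 (0.0641), without the filter on low counts (0.0568) and with the replicate block (0.0584). PLAT, tissue plasminogen activator, fell at a low level (0.821 ± 0.0356 FPKM in tau-labelled and 1.72 ± 0.290 in control-labelled libraries, SD, n = 3 each, log2 fold change -1.19, edgeR adjusted p = 0.000703). Within a library, SERPINB2 FPKM was 0.110, 0.114 and 0.0807 times PLAU FPKM under the tau label, against 0.00715, 0.0108 and 0.0141 times under the control label. This ratio does not depend on how libraries are scaled. Its groups could not overlap, because neither SERPINB2 nor PLAU FPKM overlapped and the 2 differed in opposite directions. The ratio therefore restates those values and adds no separate evidence.

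SERPINH1, the collagen chaperone of the endoplasmic reticulum also known as HSP47, fell 4.08-fold. It inhibits no protease; it binds newly made procollagen until the chain has folded. SERPINH1 (ENSG00000149257, chromosome 11, 75562056 to 75572783) stood at 20.6, 18.9 and 23.5 FPKM in tau-labelled libraries, against 79.5, 81.8 and 76.6 FPKM in control-labelled libraries. The groups were widely separated (log2 fold change -2.03, SE 0.12, edgeR adjusted p = 4.4e-06), and the log2 fold change stayed between -2.14 and -1.84 in 16 other settings.

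Of 17 symbols listed for collagen folding and export other than SERPINH1, 16 were in the table, and all of these were tested. Of them 10 fell, 1 rose and 5 did not pass (median log2 fold change -0.48), where 21.4% of all genes tested fell and 21.3% rose. KDELR3, a receptor that returns proteins such as SERPINH1 to the endoplasmic reticulum, fell to 14.02 ± 1.10 FPKM in tau-labelled libraries, against 50.5 ± 8.93 FPKM in control-labelled libraries (SD, n = 3 each, log2 fold change -1.96, edgeR adjusted p = 1.12e-05). SPARC, a secreted collagen-binding protein, fell by 1.70 on the log2 scale. P3H1, a prolyl hydroxylase, and FKBP10, a prolyl isomerase, picked with their values known, had log2 fold changes of -1.44 and -0.83 and passed. CALR, calreticulin, averaged 644 ± 53.9 FPKM in tau-labelled and 787 ± 75.3 FPKM in control-labelled libraries (SD, n = 3 each, log2 fold change -0.41, edgeR adjusted p = 0.0172), and its call ended without tau-labelled library 1 (adjusted p = 0.0803), tau-labelled library 2 (0.0818) or control-labelled library 1 (0.0548), without the filter on low counts (0.0659) and under the GC and length offsets (0.0701). TMEM38B, an ion channel of the same compartment, was the member that rose (log2 fold change 1.09, edgeR adjusted p = 9.28e-05).

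SERPINA1, α1-antitrypsin, the plasma inhibitor of neutrophil elastase, had the largest fall among the serpins described. SERPINA1 (ENSG00000197249, chromosome 14, 94376747 to 94390693, minus strand) stood at 0.801, 1.04 and 0.831 FPKM in tau-labelled libraries, against 11.2, 11.8 and 10.7 FPKM in control-labelled libraries. Its counts were 253, 320 and 287 under the tau label, against 3744, 3726 and 3572 under the control label. The groups were far apart (log2 fold change -3.77, SE 0.14, 13.7-fold lower, edgeR adjusted p = 7.53e-07), and 0.926% of all genes tested had a lower log2 fold change. Limma on log2(FPKM + 0.5) gave -3.08, a scale that understates changes of low genes. By mean FPKM SERPINA1 lay at percentile 36.4 of genes tested in tau-labelled and 80.9 in control-labelled libraries.

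Some markers of other cell types also fell, 2 of 2 leukocyte markers tested and 3 of 5 endothelial ones, where 21.4% of all genes tested fell. Of 3 neuron markers tested, 0 fell, 2 did not pass and 1, TUBB3, rose (log2 fold change 0.47, edgeR adjusted p = 0.0359). The call of TUBB3 held in 10 of 16 other settings. The summed FPKM of 3 leukocyte markers in the table (CD14, CD68 and LYZ, of 6 listed) was 73.1 to 87.7 in tau-labelled and 141 to 159 in control-labelled libraries, nearly all of it CD68. That of 5 endothelial markers (PECAM1, CDH5, VWF, KDR and TEK) was 0.496 to 0.594 FPKM in tau-labelled and 2.55 to 3.01 FPKM in control-labelled libraries. PECAM1, CDH5 and VWF fell, while KDR (log2 fold change -1.81) and TEK (0.58) did not pass. The leukocyte granule proteases that α1-antitrypsin and SERPINB1 inhibit were near 0, and none of the 7 of 10 listed genes in the table had enough counts to test. ELANE, neutrophil elastase, had 0 counts over the tau-labelled and 26 over the control-labelled libraries. The part of other cells in the SERPINA1 result was not tested.

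The remaining members of clade A were near or below detection. SERPINA6, the cortisol carrier of blood, which inhibits no protease (chromosome 14, 94304248 to 94323336), had 4, 16 and 0 counts in tau-labelled libraries, against 54, 34 and 38 counts in control-labelled libraries. SERPINA6 passed the count filter through the control-labelled libraries, the group where it was higher. Its groups did not overlap (log2 fold change -2.70, SE 0.95, edgeR adjusted p = 0.0430), but the call held in 5 of 13 other settings. It ended without tau-labelled library 1 (adjusted p = 0.125) or 3 (0.0503) and without control-labelled library 1 (0.112), 2 (0.0834) or 3 (0.0714). SERPINA5, the protein C inhibitor, had 0, 0 and 0 counts in tau-labelled and 0, 4 and 8 in control-labelled libraries, and SERPINA3, antichymotrypsin, had 0, 3 and 0 in tau-labelled and 0, 4 and 1 in control-labelled libraries. SERPINA10 had 4, 4 and 0 counts in tau-labelled and 4, 0 and 0 in control-labelled libraries. SERPINA9 had 16 counts in tau-labelled library 3 and 0 in the other 5 libraries. SERPINA12, or vaspin, had 0 counts in each library, which allows up to 0.0515 CPM in the shallowest one by counting error alone.

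Clade B, the intracellular serpins, gave members that rose, fell and did not pass. SERPINB8, for which furin is a known target in vitro (ENSG00000166401, chromosome 18, 63970029 to 64019779), stood at 11.9, 10.9 and 9.40 FPKM in tau-labelled libraries, against 4.18, 4.32 and 5.46 FPKM in control-labelled libraries. The groups did not overlap (log2 fold change 1.09, SE 0.13, 2.12-fold higher, edgeR adjusted p = 0.000211). HMSD overlaps SERPINB8 by 11746 bases on the same strand. HMSD had 432, 512 and 349 counts under the tau label, against 317, 269 and 399 under the control label, and did not pass (log2 fold change 0.32). How the counting divided their shared reads is not given in the sources used here.

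SERPINB7, or megsin, known for its loss in an inherited thickening of the skin (chromosome 18, 63752935 to 63805376), was the most abundant clade B member. It stood at 23.6, 24.7 and 23.7 FPKM in tau-labelled libraries, against 26.4, 31.7 and 34.5 FPKM in control-labelled libraries. The groups did not overlap and the difference was small (log2 fold change -0.48, SE 0.11, edgeR adjusted p = 0.00714). SERPINB7 FPKM was 2.1998, 2.12 and 2.62 times that of SERPINB2 in the tau-labelled libraries, against 25.2, 24.2 and 20.5 times in the control-labelled libraries, so these neighbours on chromosome 18 came closer in level. Of 4 keratinocyte markers in the table (5 listed), KRT14 and KRT1 had 0 counts, and the summed FPKM, nearly all KRT10, was 7.72 to 8.34 in tau-labelled and 9.97 to 12.6 in control-labelled libraries; the part of such cells was not tested.

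SERPINB6, which inhibits cathepsin G (chromosome 6, 2948159 to 2971777), stood at 5.57, 5.43 and 6.53 FPKM in tau-labelled libraries, against 7.08, 6.89 and 6.53 FPKM in control-labelled libraries. Library 3 of each label had about the same value, and the call was marginal (log2 fold change -0.34, SE 0.12, edgeR adjusted p = 0.0470). It held in 7 of 16 other settings and ended without tau-labelled library 1 (adjusted p = 0.168) or 2 (0.180) and without control-labelled library 1 (0.120) or 2 (0.127). SERPINB1, an inhibitor of neutrophil elastase and the neighbour of SERPINB6 (chromosome 6, 2832332 to 2841863), stood at 13.4, 12.9 and 11.8 FPKM in tau-labelled libraries, against 12.3, 13.1 and 15.0 FPKM in control-labelled libraries. The groups overlapped (log2 fold change -0.20, SE 0.11, edgeR adjusted p = 0.173), and the offsets for GC content and length gave a call of lower (-0.27, adjusted p = 0.0132).

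SERPINB4 and SERPINB3, near-identical copies that arose by duplication, were low, and reads that fit both copies make each value uncertain. SERPINB4 had 31, 61 and 49 counts in tau-labelled and 62, 71 and 35 in control-labelled libraries (log2 fold change -0.35, SE 0.44, edgeR adjusted p = 0.552). SERPINB3, an inhibitor of cysteine cathepsins, had 0, 29 and 10 counts in tau-labelled and 10, 18 and 0 in control-labelled libraries, too few to test. SERPINB5, or maspin, had 8, 0 and 0 counts in tau-labelled and 4, 0 and 0 in control-labelled libraries, and SERPINB12 had 0 in every tau-labelled library and 4, 0 and 0 in control-labelled libraries.

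Of 11 cysteine cathepsins, lysosomal proteases of which some are targets of clade B serpins, 10 were tested. Of these 4 rose, 0 fell and 6 did not pass (median log2 fold change 0.60, edgeR's quasi-likelihood test), where 21.3% of all genes tested rose and 21.4% fell. At an unadjusted p below 0.05 also 0 cathepsins were lower, and DESeq2 gave 1 lower at an unadjusted p below 0.05 and 0 after adjustment. Without tau-labelled library 3 CTSF was called lower (edgeR adjusted p = 0.0329), as was CTSC under the GC and length offsets (0.00160). CTSS rose to 12.8 ± 1.16 FPKM in tau-labelled libraries, against 4.84 ± 0.436 FPKM in control-labelled libraries (SD, n = 3 each, log2 fold change 1.29, edgeR adjusted p = 4.09e-05). CTSK, a collagen-degrading cathepsin, rose by 0.88 on the log2 scale (90.7 ± 3.69 FPKM in tau-labelled and 45.6 ± 3.29 in control-labelled libraries). CTSB, the most abundant, averaged 97.4 ± 8.44 FPKM in tau-labelled and 75.4 ± 2.34 in control-labelled libraries and did not pass (log2 fold change 0.25, edgeR adjusted p = 0.0800), but was called higher in 4 of 16 other settings. CTSH, another that rose, was near the floor, with 72, 68 and 20 counts in tau-labelled and 8, 11 and 9 in control-labelled libraries. It passed the count filter through the tau-labelled libraries, the group where it was higher. Its call ended without tau-labelled library 1 (edgeR adjusted p = 0.0525) or 2 (0.0520).

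Serpins of blood clotting and complement were at the lower limit of the data. SERPIND1, heparin cofactor II, an inhibitor of thrombin (chromosome 22, 20774113 to 20787720), had 43, 69 and 102 counts in tau-labelled libraries, against 26, 12 and 23 counts in control-labelled libraries. The groups did not overlap (log2 fold change 1.71, SE 0.48, 3.28-fold higher, edgeR adjusted p = 0.0165). Its call ended without tau-labelled library 3 (adjusted p = 0.0684) or control-labelled library 2 (0.0542). The gene lies within PI4KA, which is on the other strand and had 7249, 6833 and 7772 counts in tau-labelled and 8973, 7562 and 8237 in control-labelled libraries. If the authors counted without regard to strand, which the sources used here do not tell, reads of both genes are mixed.

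SERPINC1, or antithrombin, had 0 counts in every tau-labelled library and 6, 10 and 0 in control-labelled libraries. SERPING1, the C1 inhibitor, which blocks the first proteases of complement, had 0, 24 and 70 counts in tau-labelled and 19, 56 and 15 in control-labelled libraries (log2 fold change -0.08, SE 1.08, edgeR adjusted p = 0.964), and the sign turned in 5 of 13 other settings. SERPINF1, the pigment epithelium-derived factor, a secreted protein that inhibits blood vessel growth and no protease, had 58, 71 and 84 counts in tau-labelled and 33, 51 and 57 in control-labelled libraries. Its groups did not overlap, but it did not pass (log2 fold change 0.51, SE 0.36, edgeR adjusted p = 0.283). SERPINE3, which lies partly over INTS6 on the other strand, had 2, 3 and 0 counts in tau-labelled and 6, 2 and 0 in control-labelled libraries.

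Of 25 genes of coagulation and complement 17 were tested, of which 2 rose, 4 fell and 11 did not pass (median log2 fold change -0.10). Of all genes tested, 21.3% rose and 21.4% fell. The balance of the list depended on the scaling: 6 rose and 4 fell with library size alone, 5 rose and 3 fell of 10 genes with limma on either FPKM scale, and 6 rose and 5 fell under the GC and length offsets. Without tau-labelled library 2, 1 rose. F3, tissue factor, which starts coagulation, fell to 1.83 ± 0.1002 FPKM in tau-labelled libraries, against 5.28 ± 0.536 FPKM in control-labelled libraries (SD, n = 3 each, log2 fold change -1.63, edgeR adjusted p = 4.51e-05). MASP1, a complement protease, fell by 3.74 on the log2 scale at a low level (0.0669 ± 0.0227 FPKM in tau-labelled and 0.850 ± 0.0608 in control-labelled libraries). C1S, a target of SERPING1, rose by 0.43, and C1R, its partner, had log2 fold change 0.15 and did not pass (adjusted p = 0.287). PROS1, protein S, rose by 0.53 (adjusted p = 0.0189), but not without tau-labelled library 2 (adjusted p = 0.0800). C3 averaged 59.0 ± 3.13 FPKM in tau-labelled and 45.1 ± 7.55 FPKM in control-labelled libraries and did not pass. C3 and C1R were each called higher in 4 of 16 other settings, those of library size alone, limma on either scale and the GC and length offsets.

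Inhibitors of other families were set beside the serpins. Of 30 listed, 11 were tested, of which 4 rose, 1 fell and 6 did not pass (median log2 fold change 0.62), where 21.3% of all genes tested rose and 21.4% fell. SPINK1, a trypsin inhibitor of the Kazal type, stood at 12.4, 13.2 and 14.4 FPKM in tau-labelled libraries, against 0.634, 0.596 and 0.578 FPKM in control-labelled libraries. Its groups were far apart (log2 fold change 4.31, edgeR adjusted p = 8.08e-07). CSTB, cystatin B, an inhibitor of cysteine cathepsins, rose to 85.7 ± 4.23 FPKM in tau-labelled libraries, against 49.2 ± 1.8997 FPKM in control-labelled libraries (SD, n = 3 each, log2 fold change 0.68, edgeR adjusted p = 0.000632). TFPI2, a Kunitz-type inhibitor, rose by 0.62 (157 ± 4.55 FPKM in tau-labelled and 93.9 ± 6.46 in control-labelled libraries). SPINT2, the member that fell, lay below 0.2 FPKM in each library (log2 fold change -1.53, adjusted p = 0.0405) and kept its call in 3 of 13 other settings; its call ended on leaving out any single library (adjusted p from 0.0510 to 0.121). PEBP1 was the most abundant and did not pass (adjusted p = 0.193).

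**Figure D4:**
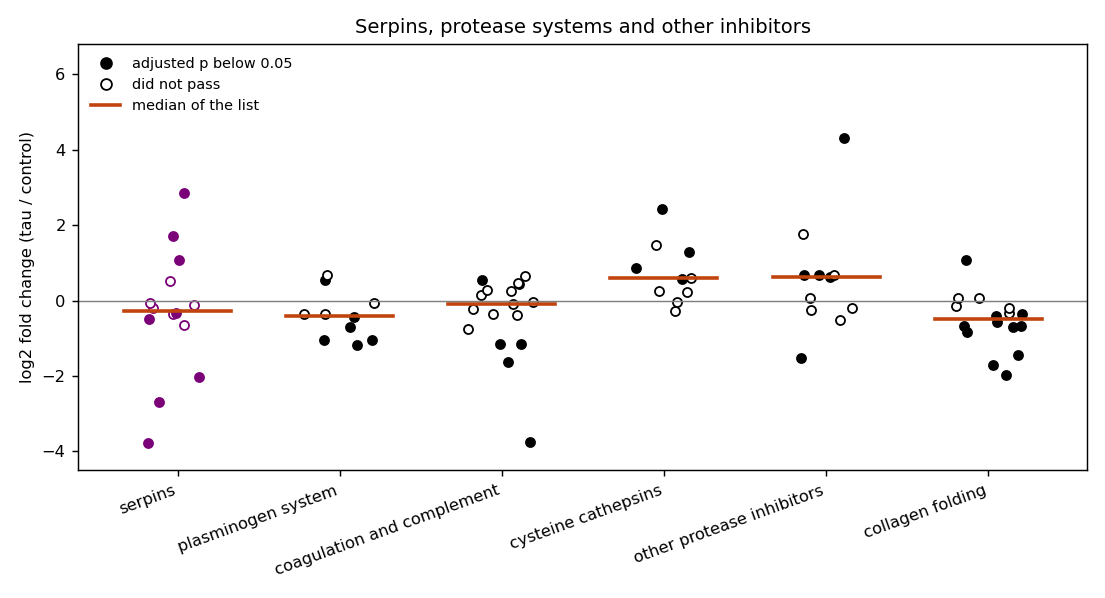
Log2 fold change (tau-labelled over control-labelled) of each gene tested among the serpins and 5 lists of proteases, partners and other inhibitors, filled where the adjusted p was below 0.05 and open otherwise, with an orange line at each list's median. The serpins spread from -3.77 to 2.84 around a median of -0.27, while the medians of the other lists lie between -0.48 and 0.62.

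Many serpins lie in clusters, and members passed in both directions in one of the clusters described and in one direction in the other. The cluster on chromosome 18 (63476958 to 64019779, from SERPINB5 to SERPINB8) holds SERPINB7, SERPINB2 and SERPINB8 in this order on the plus strand, and of these SERPINB7 fell and SERPINB2 and SERPINB8 rose. SERPINB4 and HMSD, also within the cluster, did not pass (log2 fold changes -0.35 and 0.32). Outside it, KDSR and VPS4B on one side rose by 0.74 and 0.68 on the log2 scale, while KDSR-DT did not pass (-0.18). On the other side the nearest tested gene, ENSG00000260578, starts as far off as 67481791. It rose by 1.36, a call kept in 3 of 12 other settings. Beyond it DSEL (from 67506587) rose by 1.30 and ENSG00000260747 did not pass (-0.13). The cluster on chromosome 14 (94280460 to 94624055) holds SERPINA1 and SERPINA6, the 2 members there with enough counts to test, and both fell. SERPINA6 had 4, 16 and 0 counts in tau-labelled and 54, 34 and 38 in control-labelled libraries. It passed the count filter through the group where it was higher, so its direction adds little beside that of SERPINA1. The call of SERPINA6 held in 5 of 13 other settings. Of the tested genes next to the cluster, PPP4R4, IFI27L2, IFI27 and RPL15P2 did not pass (log2 fold changes 0.66, -0.26, 0.34 and -0.85). DICER1 (from 95086228) rose by 1.79. DICER1-AS1, its antisense neighbour, fell by 1.66 on the log2 scale (edgeR adjusted p = 0.0232), a call kept in 8 of 12 other settings.

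**Figure D5:**
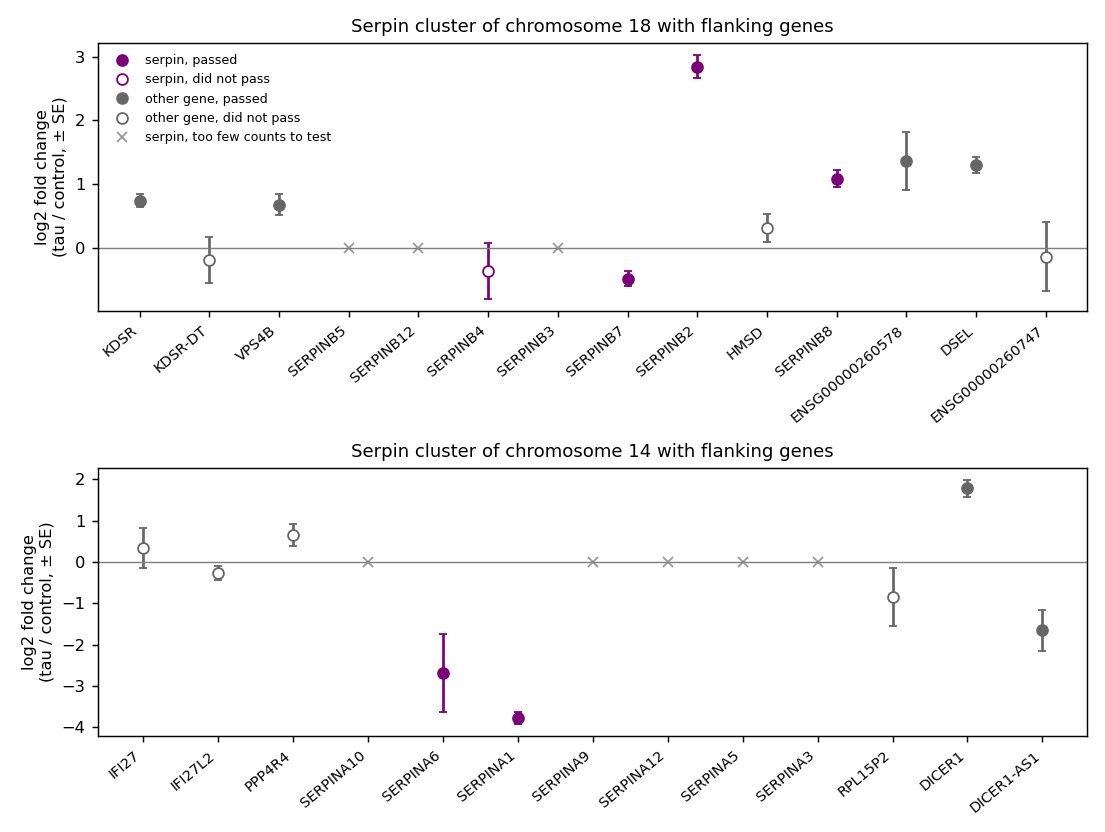
Log2 fold change (tau-labelled over control-labelled, bars are SE) of genes in chromosomal order, not to scale, in the serpin clusters of chromosome 18 and of chromosome 14 with 3 tested genes on each side. Purple marks serpins and grey other genes, filled where the gene passed; crosses on the zero line mark serpins with too few counts to test and carry no value. SERPINB2 at 2.84 stands beside SERPINB7 at -0.48, and SERPINA1 and SERPINA6 are at -3.77 and -2.70.

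Promoter sequences show what lies just before the starts of the genes with the clearest changes. RefSeq (GRCh38.p14) gave a start for 21 of the 25 serpins, in 34 windows of 250 bases each. Both strands were searched for TGANTCA, the site of AP-1 factors; GAANNTTC, a pair of heat shock element units; ACGTG, the core of hypoxia-inducible factor sites; CCAAT; and TATAAA. Below are windows for SERPINB2 and SERPINB8, which rose, for SERPINB7, their neighbour that fell, and for SERPINH1 and SERPINA1, which fell. SERPINB7 has 3 annotated starts and SERPINH1 has 2, of which 1 is shown for each, and both starts of SERPINA1 are shown. Each is 5′ to 3′ on the gene's strand and ends just before the start, with capitals marking matches.
SERPINB2 (chr18:63887455-63887704, plus strand): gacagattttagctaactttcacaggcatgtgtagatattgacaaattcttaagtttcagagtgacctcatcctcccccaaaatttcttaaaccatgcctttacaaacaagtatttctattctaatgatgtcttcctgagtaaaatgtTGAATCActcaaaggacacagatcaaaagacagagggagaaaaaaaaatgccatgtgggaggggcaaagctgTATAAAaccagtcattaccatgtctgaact
SERPINB8 (chr18:63969831-63970080, plus strand): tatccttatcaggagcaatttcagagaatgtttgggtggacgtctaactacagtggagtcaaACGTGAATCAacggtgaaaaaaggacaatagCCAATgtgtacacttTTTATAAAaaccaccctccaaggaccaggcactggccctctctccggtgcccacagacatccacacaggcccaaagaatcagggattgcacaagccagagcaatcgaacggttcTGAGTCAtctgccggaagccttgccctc
SERPINB7 (chr18:63777531-63777780, plus strand): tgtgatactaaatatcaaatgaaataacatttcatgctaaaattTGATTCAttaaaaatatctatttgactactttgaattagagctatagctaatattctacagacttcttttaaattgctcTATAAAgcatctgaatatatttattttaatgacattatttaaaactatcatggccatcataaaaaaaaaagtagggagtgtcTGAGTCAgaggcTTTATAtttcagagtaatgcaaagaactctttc
SERPINH1 (chr11:75562003-75562252, plus strand): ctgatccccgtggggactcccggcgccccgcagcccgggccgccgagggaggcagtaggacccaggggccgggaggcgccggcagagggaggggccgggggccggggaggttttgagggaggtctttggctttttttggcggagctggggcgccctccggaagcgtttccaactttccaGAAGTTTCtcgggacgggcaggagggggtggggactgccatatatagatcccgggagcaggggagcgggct
SERPINA1 (chr14:94390636-94390885, minus strand): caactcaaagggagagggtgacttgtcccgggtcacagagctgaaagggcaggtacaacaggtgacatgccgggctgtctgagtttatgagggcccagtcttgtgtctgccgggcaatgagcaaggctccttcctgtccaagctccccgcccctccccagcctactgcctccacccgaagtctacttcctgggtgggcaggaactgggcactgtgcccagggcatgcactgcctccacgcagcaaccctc
SERPINA1 (chr14:94388603-94388852, minus strand): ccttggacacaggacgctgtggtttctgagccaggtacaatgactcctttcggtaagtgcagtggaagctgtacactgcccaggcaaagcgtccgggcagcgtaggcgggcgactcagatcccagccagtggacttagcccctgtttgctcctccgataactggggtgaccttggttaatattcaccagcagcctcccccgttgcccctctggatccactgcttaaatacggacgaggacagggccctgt

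TGANTCA was found in the windows of SERPINB2 (102 bases before the start), SERPINB8 (185 and 28 bases before) and SERPINB7 (206 and 45 bases before in the window shown), and in 7 of the 34 serpin windows, against 6.57% of all 35116 windows. Another SERPINB7 window also holds it, and the third does not. SERPINB2 and SERPINB8 rose and SERPINB7 fell, and whether a match bears on direction was not tested. In SERPINB8 the TGANTCA match at 185 shares bases with an ACGTG match at 188, and 2 TATAAA matches on opposite strands overlap. SERPINB2 has TATAAA 30 bases before its start, a word in 10.7% of all windows. SERPINH1, a member of the heat shock response, has GAANNTTC 71 bases before the start shown but not in the window of its other start, and that word is in 3 of the 34 serpin windows and in 5.78% of all windows. Neither SERPINA1 window holds any of the 5 words, and ACGTG and CCAAT are in 18.5% and 32.01% of all windows. A match describes letters and is not a binding site, and the gene-level counts do not tell which start was used.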

How the data were processed

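The authors deposited 1 table of raw counts and FPKM values, and 0 of its columns were left without a sample. The authors' FPKM values are scaled to gene length and library size. Per the submitters' processing notes, the tools were HISAT2 2.2.1, StringTie 2.1.6 and cutadapt 1.9 and the build GRCh38, with DESeq2 and edgeR named without a role. Which tool counted, and whether by strand, is not given in the sources used here. Libraries held poly(A) RNA and kept the strand through a dUTP step, per the labels' protocols. Values of 4 counts (6724) outnumbered values of 1 (5596), so the counts may derive from coverage, and counting limits cover counting error only.

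The test was edgeR 4.0.16 (R 4.3.3) on the counts of all genes: filterByExpr (minimum count 10, minimum total 15), TMM and the two-sided quasi-likelihood test with no term but group, and Benjamini-Hochberg adjusted p-values over 17927 genes. Rose and fell mean an adjusted p below 0.05. Folds are those of the fit, and its SE is the log2 fold change divided by the square root of F. The code was tested on simulated data. FPKM served to show levels. Alternatives were RLE or library size alone, other filters, DESeq2 1.42.0, limma 3.58.1 on log2(FPKM + 0.5) or log2(FPKM + 0.1), a replicate block, leaving out each library and, added after seeing the data, GC and length offsets from GENCODE transcripts. The members and lists were chosen with earlier results of these data known. The symbol rule found 26 serpins, of which 1 is not reported here and enters no count of members. Every other serpin is named, and values are given per library where it passed or reached a mean of 1 FPKM. In each list, the members that passed with the 2 smallest p-values in each direction and the 2 most abundant were to be named; some of them are not described.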

Additional observations from a re-analysis of the deposited data

How the results depend on the processing

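SERPINB2, SERPINB8, SERPINA1, SERPINH1 and SERPINB7 kept their direction and call in all 16 other settings. The calls of SERPINA6, SERPINB6 and SERPIND1 did not hold throughout. The count of serpins that fell, 5, became 3 with library size alone, without the filter on low counts and with limma on either FPKM scale, and 3 to 4 on leaving out single libraries (3 without tau-labelled library 1, control-labelled library 1 or control-labelled library 2), while the GC and length offsets gave 7. With limma the genes that fell, 3830 of all tested, became 2330 (pseudocount 0.5) and 2317 (pseudocount 0.1) of 11129 genes with a mean of at least 1 FPKM. Over all genes tested the median, 0.00439, shifted to 0.12 with library size alone and 0.15 and 0.16 with limma, so values there stand against a shifted centre. The sign of SERPING1 turned with library size alone (0.016), with GC and length offsets (0.12) and on leaving out single libraries, where it ran from -1.38 to 0.77. Deviations of same-numbered libraries correlated at -0.09 to -0.01. With 3 libraries per group this cannot tell whether replicate numbers pair the libraries. With the replicate block 3 serpins rose and 4 fell, SERPINB6 being lost (adjusted p = 0.120). Counts of the context lists differed by over 1.5 times from the main count in 21 of 160 comparisons. The causes were not tested. SERPINA6, SERPINB4, SERPIND1, SERPINF1 and SERPING1 had 0 to 102 counts per library, where counting error is large.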

Other observations

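The table lists 3 further genes named after serpins that are not protein-coding. SERPINH1P1, a processed copy of SERPINH1 on chromosome 9, had 17, 4 and 6 counts in tau-labelled libraries, against 10, 8 and 0 counts in control-labelled libraries. SERPINB9P1 had 0, 8 and 0 counts in tau-labelled and 8, 5 and 0 in control-labelled libraries. SERPINA2, a polymorphic pseudogene beside SERPINA1, had 0 counts in all 6 libraries.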
